A study of Homo sapiens with 3 samples.

Results

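The data described here are those of 8 genes of endocytosis and membrane trafficking, followed through the exon-skipping data of BJ fibroblasts under reprogramming. They are DNM2, BIN1, ITSN1, CLTA, CLTB, STX16, VPS29 and PLD3. The genes were chosen by name, from a list drawn up with measured values of these data in view, namely the inclusion differences and FDRs described here. Their values are therefore a description and no test of the genes as a group was made. All 8 were listed in both tables, with 51 of the 33745 exons (77 of 40702 events) in the RS2 table and 54 of the 34977 exons (82 of 42518 events) in the RS3 table. Together these were 57 exons, of which 48 were in both tables, 3 in the RS2 table alone and 6 in the RS3 table alone.

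BJ cells are an established line of human foreskin fibroblasts, and every library was made 8 days after viral expression of the reprogramming factors OSKM (OCT4, SOX2, KLF4 and MYC) was induced. Per the labels, 1 library came from cells given SMAD3 siRNA, 1 from cells given SFRS11 siRNA and 1 from cells given non-targeting siRNA. SMAD3 carries TGF-beta signals to the nucleus, and SFRS11 (now SRSF11) is a splicing factor. The 2 deposited tables set the libraries coded RS2 and RS3 against 1 other library, called the shared library here, and no label says which code belongs to which siRNA. The codes are used throughout, and nothing here is attributed to either knockdown.

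Each event is 1 row of a table: a cassette exon with the authors' difference in inclusion level, where inclusion level is the share of transcripts across the region that keep the exon. A negative difference is read as lower inclusion in RS2 or RS3 than in the shared library. This direction was taken from the order of the codes and of the level columns in the first rows. There was 1 library on each side of every comparison and no replicate, so the authors' FDR compares libraries and not conditions. An event was called where that FDR was under 0.05 and the difference was at least 0.1 in size. Read depth is unknown and no interval can be given. The tables do not name the flanking exons, so several rows of 1 exon cannot be matched between RS2 and RS3. Both tables use the shared library, so their values are given side by side and were not tested against each other. The tables measure splicing, not the amount of any RNA, so fibroblast markers could not be checked.

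Clathrin-mediated endocytosis bends a patch of plasma membrane into a coated pit and cuts it off as a vesicle. Clathrin heavy chains form the cage and the light chains CLTA and CLTB decorate it; intersectin (ITSN1) is a scaffold that gathers coat and scission proteins; amphiphysin 2 (BIN1) has a BAR domain that curves the neck; and the GTPase dynamin 2 (DNM2) severs it. Further along, the SNARE syntaxin 16 (STX16) serves fusion of endosome-derived vesicles with the trans-Golgi network, VPS29 is a core subunit of retromer, which retrieves cargo from endosomes, and PLD3 is a lysosomal protein of the phospholipase D family. Several of these genes are known for tissue-specific cassette exons: the light chains carry neuron-specific inserts, and BIN1 has brain exons that bind clathrin and AP2.

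The sequences below are those skipped exons around which the results turn that lie inside a coding sequence. The 33-base exon of PLD3, called in RS2, lies upstream of the coding sequence and is not printed. Each printed exon was found in GENCODE release 29 as the only annotated exon of its gene with the listed length. In this way 45 of the 57 exons could be matched. Capitals mark the skipped exon, and the lower-case letters are the 15 bases on each side in the spliced transcript, given for 1 annotated arrangement where several exist. The first group holds the exons called with lower inclusion in RS3.
DNM2, 12-base exon: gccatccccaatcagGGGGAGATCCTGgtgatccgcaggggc
STX16, 12-base exon: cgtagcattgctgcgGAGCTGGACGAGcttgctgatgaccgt
VPS29, 12-base exon: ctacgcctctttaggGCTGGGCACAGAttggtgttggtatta
BIN1, 129-base exon: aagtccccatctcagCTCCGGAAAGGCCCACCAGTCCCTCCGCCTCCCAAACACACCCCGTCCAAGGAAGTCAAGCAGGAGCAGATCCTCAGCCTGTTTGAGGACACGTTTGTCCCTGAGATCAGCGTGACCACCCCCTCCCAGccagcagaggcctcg

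The next sequence is the BIN1 exon called with lower inclusion in RS2, printed because it is another exon of the same gene.
BIN1, 90-base exon: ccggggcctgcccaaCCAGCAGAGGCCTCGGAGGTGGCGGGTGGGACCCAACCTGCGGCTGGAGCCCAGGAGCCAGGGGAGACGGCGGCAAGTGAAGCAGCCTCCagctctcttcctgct

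The last group holds the light-chain exons of 54 and 36 bases, printed because they are cassette exons of the coat itself that were not called.
CLTA, 54-base exon: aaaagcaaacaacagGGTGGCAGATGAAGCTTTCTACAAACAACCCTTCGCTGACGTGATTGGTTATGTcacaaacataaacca
CLTA, 36-base exon: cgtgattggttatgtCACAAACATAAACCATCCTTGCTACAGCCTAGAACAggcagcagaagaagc
CLTB, 54-base exon: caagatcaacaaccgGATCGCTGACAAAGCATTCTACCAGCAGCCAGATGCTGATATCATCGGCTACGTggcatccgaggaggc

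All of the printed exons have lengths that are multiples of 3 and none holds a stop codon among the codons that lie wholly inside it. Where such an exon is coding, keeping or skipping it does not shift the reading frame. The exons of DNM2, STX16, VPS29 and BIN1 above begin on a codon boundary, whereas the light-chain exons begin within a codon. The STX16 exon lay inside the coding sequence of 2 of 5 protein-coding transcripts and upstream of it in the other 3. The 12-base exons are not alike in sequence: DNM2 and STX16 share 5 of 12 bases by position, DNM2 and VPS29 share 4, and STX16 and VPS29 share 4. The 54-base exons of CLTA and CLTB share 35 of 54 bases (64.8%).

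In RS3, 1 exon each of DNM2, BIN1, STX16 and VPS29 was called with lower inclusion, and no member exon was called with higher inclusion. The calls were 6 events in 4 exons, 6 of 6 lower, out of 82 member events. Among all RS3 events, 0.967% were called and 0.736% were called lower, and 3.05% of all genes had a called event. Because the genes were picked with these values known, the excess over the table is not read as a result. In RS2 the calls were 3 of 77 member events in 2 exons: inclusion fell for a BIN1 exon and rose for a PLD3 exon. Among all RS2 events 0.0712% were called, in 0.238% of genes. No member exon was called in both tables. Few exons were called at all, 27 of 33745 in RS2 and 396 of 34977 in RS3. How many of all exons were called in both was not counted, so this is not read as a difference between the libraries. ITSN1, CLTA and CLTB had 0 called events in either.

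**Figure D1:**
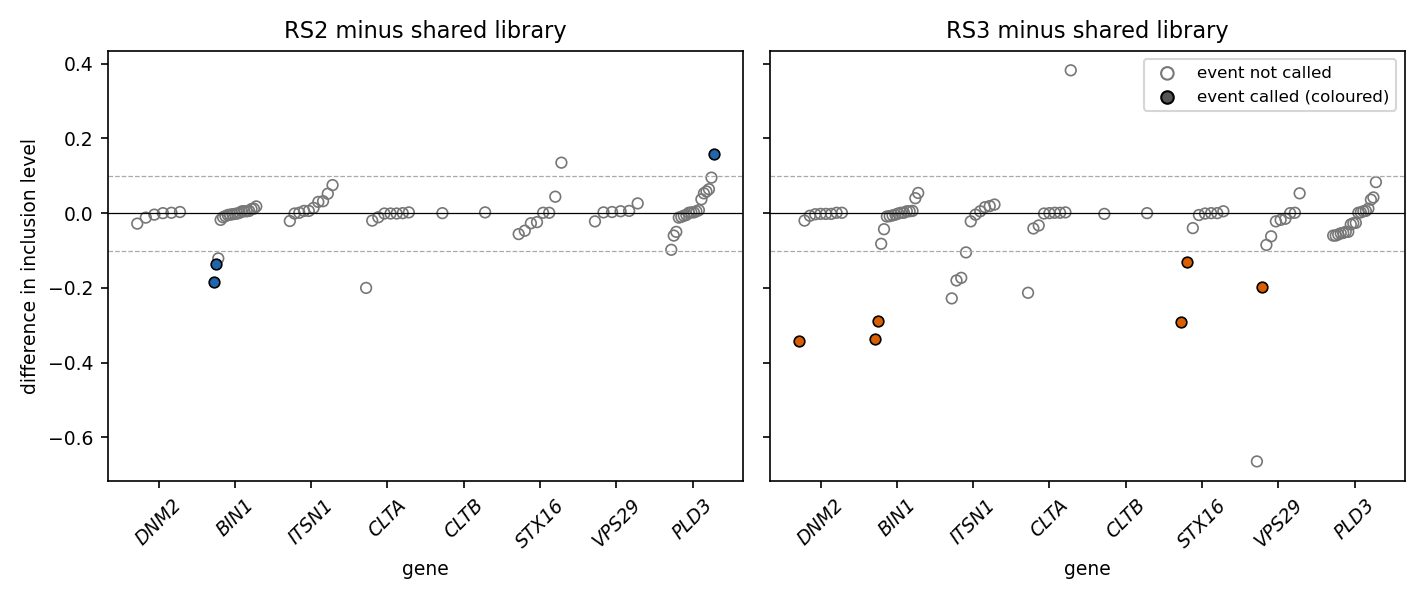
Each point is 1 event of a member gene, with the authors' difference in inclusion level on the y axis (no unit, RS2 or RS3 minus the shared library) and the gene on the x axis; filled points are called, open points are not, and dashed lines mark differences of 0.1. The called RS3 events of DNM2, BIN1, STX16 and VPS29 lie between -0.341 and -0.130, and in RS2 the called points are at -0.183 and -0.135 for BIN1 and 0.157 for PLD3.

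The dynamin 2 change was at the shortest listed exon of the gene. The 12-base exon of DNM2 (ENSG00000079805, hg19 chromosome 19, 10919245 to 10919256, plus strand) fell by 0.341 in RS3 (FDR 8.16e-09) in the authors' deposited table. The authors' deposited table gave -0.028 (FDR 1) for it in RS2. The exon was in a single row of each table, so no other row competes with these values. All the other DNM2 exons stayed near the shared library: across 8 events in RS3 the authors' deposited table gave -0.020 to 0.001, and across 5 others in RS2 it gave -0.012 to 0.003. These included the listed exons on either side, a 52-base exon at -0.003 and a 165-base exon at 0.001 for RS3, per the authors' deposited table. They also included 2 exons of equal length, 139 bases each, an alternative pair for which dynamin 2 is known; the authors' deposited table listed them at -0.007 and -0.020 in RS3 and at -0.004 and -0.012 in RS2.

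BIN1 was called at different exons in RS2 and RS3, which were not tested against each other. The 129-base exon of BIN1 (ENSG00000136717, hg19 chromosome 2, 127815049 to 127815177, minus strand) was in 5 rows of the RS3 table. Its called rows in the authors' deposited table were -0.337 (FDR listed as 0) and -0.288 (FDR 3.82e-07), and the other 3 rows were -0.043, 0.005 and 0.005. The median over the 5 rows is -0.043, so the fall rests on 2 of them. In RS2 the same exon had 6 rows in the authors' deposited table, 1 at -0.121 with an FDR of 0.204 and 5 between -0.018 and 0.018, and none was called.

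The 90-base exon of BIN1 (127808730 to 127808819) was the one called in RS2. Both of its RS2 rows were called in the authors' deposited table, at -0.183 (FDR 3.48e-05) and -0.135 (FDR 0.00379). Its RS3 rows in the authors' deposited table were -0.082 (FDR 0.386) and 0.040 (FDR 1), on opposite sides of the shared library. The 90-base exon lay inside the coding sequence of 9 of 9 protein-coding transcripts that hold it, and the 129-base exon inside that of 4 of 4.

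Between these exons the tables list 2 exons of 108 bases, and neither was called. The first of them in transcript order (127811481 to 127811588) was at 0.054 and -0.004 in RS3 and at 0.005 and 0.012 in RS2 in the authors' deposited table. The second (127809831 to 127809938) was at -0.009 and -0.006 in RS3 and at -0.003 and -0.002 in RS2 in the authors' deposited table. A 93-base exon upstream of the 129-base exon was at -0.008 in RS3 and -0.005 in RS2 in the authors' deposited table. The 111-base exon that follows the 90-base exon lay between -0.001 and 0.006 in RS3 and between 0.006 and 0.011 in RS2 in the authors' deposited table. Of the 9 BIN1 exons listed in either table, 2 had a called row, and all 9 have lengths that are multiples of 3.

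**Figure D2:**
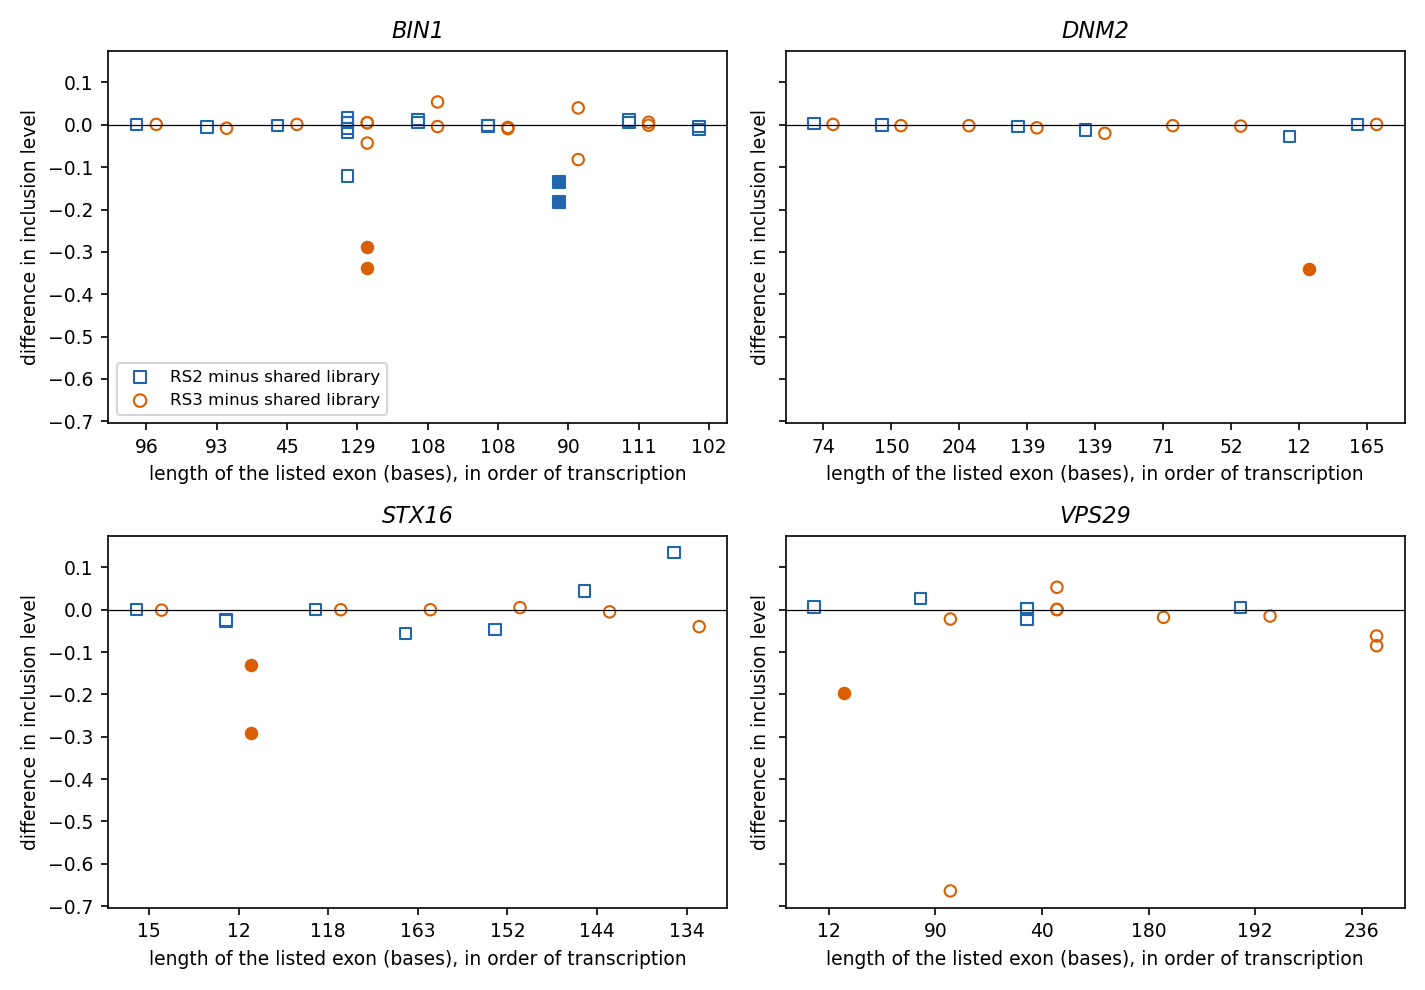
Listed exons of BIN1, DNM2, STX16 and VPS29 are ordered along the transcript on the x axis and labelled by length in bases; the y axis is the authors' difference in inclusion level, squares are rows of RS2 minus the shared library, circles are rows of RS3 minus the shared library, and filled symbols are called. The filled symbols sit at 1 exon each of DNM2 (12 bases), STX16 (12 bases) and VPS29 (12 bases) in RS3, and in BIN1 at 129 bases in RS3 and 90 bases in RS2.

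ITSN1 had no called event. Its largest RS3 differences were all negative: in the authors' deposited table an 83-base exon was at -0.228 (FDR 1), a 167-base exon at -0.173 (FDR 0.622) and -0.105 (FDR 0.707), and a 46-base exon at -0.180 (FDR 0.101). The 46-base exon of ITSN1 (ENSG00000205726, hg19 chromosome 21, 35199122 to 35199167, plus strand) had the smallest FDR among uncalled member events with a difference of at least 0.1. In RS2 the 46-base and 167-base exons were at 0.030 and 0.075 in the authors' deposited table (FDR 1 for each), and the 83-base exon at 35191545 was in the RS3 table alone. Of its 10 events in RS2, 8 had a positive difference, and of its 10 events in RS3, 6 had a negative one. The smallest RS2 FDR among ITSN1 events in the authors' deposited table was 0.418, for a 125-base exon at 0.052. None of the 9 ITSN1 exons of the RS3 table has a length that is a multiple of 3.

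The clathrin light chains had no called exon. The 54-base exons, known as neuronal inserts, were flat in both genes. The 54-base exon of CLTA (ENSG00000122705, hg19 chromosome 9, 36209264 to 36209317, plus strand) was at -0.001 in RS3 and -0.001 in RS2 in the authors' deposited table. The 54-base exon of CLTB (ENSG00000175416, hg19 chromosome 5, 175823480 to 175823533, minus strand) was at -0.002 in RS3 and 0.002 in RS2 in the authors' deposited table. The 36-base exon of CLTA (36210622 to 36210657) had 2 RS3 rows in the authors' deposited table, at 0.382 and 0.000, both with an FDR of 1, and an RS2 row at -0.001. The 552-base exon of CLTB was at 0.000 in both comparisons in the authors' deposited table. Inclusion levels themselves were not analysed, so a difference of 0 does not say whether these exons were always kept or always skipped.

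A short CLTA exon passed the FDR limit alone. The 38-base exon (36197548 to 36197585) was at -0.041 in RS3 (FDR 0.00869) in the authors' deposited table, past the FDR limit but below the size limit, and its other RS3 row was at 0.001. In RS2 its rows were -0.020 (FDR 0.994) and 0.000 in the authors' deposited table. A 245-base exon at 36263195 to 36263439, 52.5 kb beyond the next listed CLTA exon, was at -0.213 in RS3 (FDR 0.98) and -0.200 in RS2 (FDR 1) in the authors' deposited table, the largest negative values of the gene in both. It was annotated in no protein-coding transcript of CLTA.

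The syntaxin 16 change was at a 12-base exon as well. The exon of STX16 (ENSG00000124222, hg19 chromosome 20, 57234679 to 57234690, plus strand) had 2 rows in RS3, both called in the authors' deposited table, at -0.291 (FDR 2.5e-06) and -0.130 (FDR 0.000578). Its 2 RS2 rows in the authors' deposited table were -0.027 and -0.024 (FDR 1 for each). The other 6 STX16 exons lay between -0.040 and 0.005 for RS3, per the authors' deposited table. They spread wider in RS2, between -0.056 and 0.135, where the largest, a 134-base exon (57246220 to 57246353), had an FDR of 1 in the authors' deposited table. The exons next to the 12-base exon were flat, with a 15-base exon at -0.001 and a 118-base exon at 0.000 for RS3, per the authors' deposited table.

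VPS29, the retromer subunit, was the third gene with a 12-base exon. The exon (ENSG00000111237, hg19 chromosome 12, 110937340 to 110937351, minus strand) fell by 0.197 in RS3 (FDR 6.13e-05) in the authors' deposited table. In RS2 the authors' deposited table had it at 0.006 (FDR 1). It lay inside the coding sequence of 3 of 3 protein-coding transcripts. A 90-base exon (110937262 to 110937351) begins at the same base in the direction of transcription and runs further, so the 12-base exon is its first part. That longer exon had RS3 rows in the authors' deposited table of -0.022 (FDR 0.0368) and -0.664 (FDR 1), neither of them called, since the first is under the size limit and the second over the FDR limit. The authors' deposited table gave 0.026 (FDR 0.743) for its RS2 row. The remaining VPS29 exons lay between -0.085 and 0.053 in RS3 and between -0.022 and 0.005 in RS2 in the authors' deposited table.

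The RS3 table held 27 events of 12-base exons, in 26 exons of 25 genes, and 4 of them (14.8%) were called with lower inclusion and 0 with higher. Those 4 events belong to DNM2, STX16 and VPS29. For RS2, 0 of 30 events of 12-base exons were called. The median difference over all 12-base events was 0.000 in RS3 and -0.005 in RS2, so the class of 12-base exons had a median near 0 in both. Since the members were chosen for these values, this is a count and not a test of exon size.

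**Figure D3:**
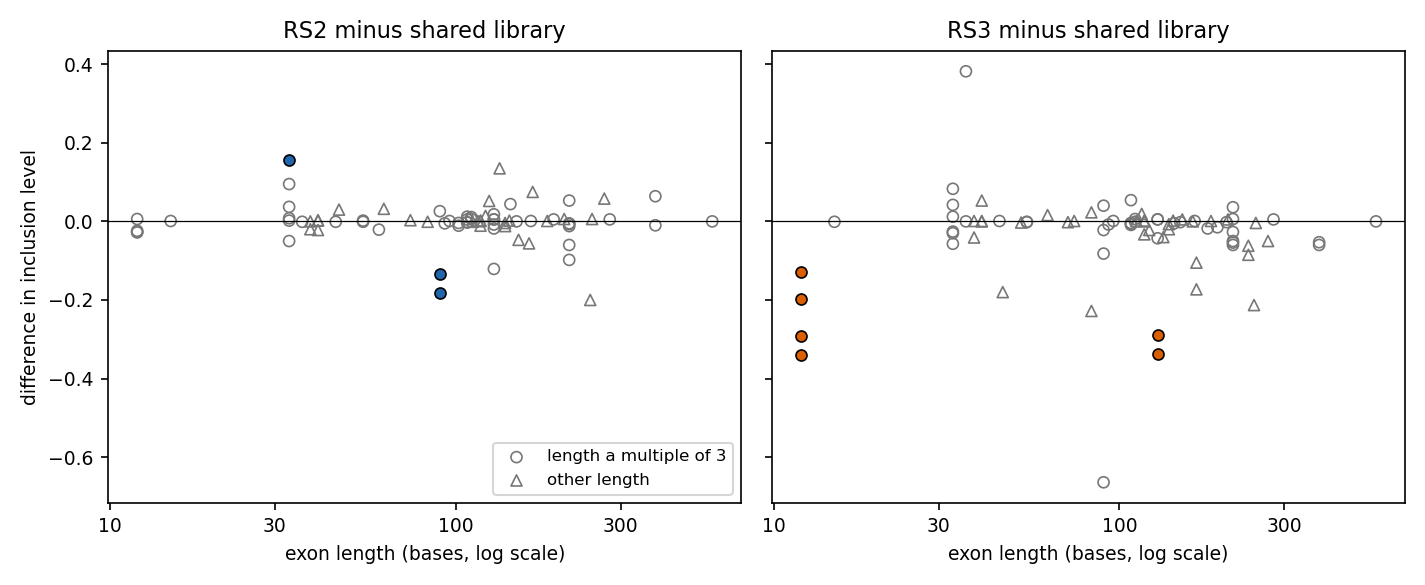
The authors' difference in inclusion level (y axis, RS2 or RS3 minus the shared library) is plotted for each member event against exon length in bases (x axis, log scale); circles are lengths that are multiples of 3, triangles other lengths, and filled symbols are called. The called RS3 events lie at 12 and 129 bases and the called RS2 events at 33 and 90 bases, all of them circles.

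PLD3 was the member with an exon called with higher inclusion. Its 33-base exon (ENSG00000105223, hg19 chromosome 19, 40871460 to 40871492, plus strand) had 6 rows in RS2, and 1 was called, at 0.157 (FDR 0.00872), per the authors' deposited table. The other RS2 rows in the authors' deposited table were 0.095 (FDR 0.256), 0.037, 0.008, 0.002 and -0.050, so 5 of 6 were positive and their median with the called row is 0.0225. The RS3 rows of the exon in the authors' deposited table ran from -0.057 to 0.083 and none was called. The exon lies upstream of the coding sequence in 4 of 4 protein-coding transcripts, so it adds no codons there, and its length is a multiple of 3 all the same.

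PLD3 also listed 3 longer exons of 378, 269 and 213 bases that all end at 40871837, the first of them starting with the 33-base exon. In RS3 their values in the authors' deposited table were -0.060 and -0.053 for the first, -0.050 for the second, and -0.060 to 0.036 over 6 rows for the third. In RS2 they were 0.064 and -0.010, 0.058, and -0.098 to 0.053 in the authors' deposited table. The smallest FDR among them was 0.469 in RS3 and 0.566 in RS2. The 3 exons of PLD3 downstream of these, of 143, 279 and 184 bases, lay between 0.001 and 0.005 in both comparisons in the authors' deposited table.

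Across the members, most events lay close to the shared library. Over all 82 RS3 events the median difference was -0.0035 (quartiles -0.05 and 0.001), beside -0.001 over the whole table (quartiles -0.027 and 0.014). Over all 77 RS2 events it was 0.001 (quartiles -0.011 and 0.006), beside 0.000 over all events. Differences of at least 0.1 in size made up 15.9% of member events in RS3 and 7.79% in RS2, beside 21.2% and 19.2% of all events. Negative differences numbered 49 of 82 in RS3 and 34 of 77 in RS2, beside 21713 of 42518 and 18692 of 40702 over all events. Of the member exons, 27 of 54 (50.0%) in the RS3 table and 27 of 51 (52.9%) in the RS2 table had a length that is a multiple of 3, beside 41.4% and 41.3% of all exons. Among the 6 exons called in either table it was 6 of 6, and among the 51 called in neither it was 23. The called exons had a median length of 22.5 bases, against 118.0 bases for those called in neither. The genes were picked with these calls known, so this split is a description and not a result about called exons.

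A separate list of 194 other genes, which leaves out the 8 members, of clathrin coats and adaptors, dynamins and BAR-domain proteins, SNAREs, retromer and sorting nexins, and ESCRT and endolysosomal tethers was examined by the same rule. In RS3, 5 of the 158 listed genes (3.16%) had a called event, which is near the 3.05% of all genes. The 4 members called in RS3 are not in these counts. There were 6 lower events and 1 higher event, over 653 events with a median difference of -0.001. Clathrin coat and adaptor genes held 4 of the 5 genes, out of 47 listed, SNAREs and their regulators 1 of 37, the other dynamins and BAR-domain proteins 0 of 20, the other retromer, sorting nexin and WASH genes 0 of 25, and the other phospholipase D, ESCRT and tether genes 0 of 29. In RS2, 0 of 156 listed genes had a called event over 639 events, beside 0.238% of all genes. The members BIN1 and PLD3, which were called, are again not in this count.

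EPS15L1 is an endocytic scaffold of coated pits, and 2 of the 4 RS3 rows of its 133-base exon were called in the authors' deposited table, at -0.292 (FDR 7.48e-05) and -0.256 (FDR 0.000165), with all 4 between -0.292 and -0.076. The 3 RS2 rows of that exon in the authors' deposited table ran from -0.316 to 0.010 and none was called. NAPA, which lets NSF take SNARE complexes apart, had lower inclusion of a 117-base exon (-0.168, FDR 0.0125) and of an 80-base exon (-0.134, FDR 0.00192, with a second row at -0.008) for RS3, per the authors' deposited table. For NUMB, an adaptor of Notch and integrin uptake, a 144-base exon was at -0.110 (FDR 6.98e-08), with a second row at -0.002, for RS3, per the authors' deposited table. A 103-base exon of PICALM, a clathrin assembly protein, was at -0.104 (FDR 0.0155) and a 125-base exon of AP1G2, a gamma subunit of the AP1 adaptor family, at 0.145 (FDR 0.0122) for RS3, per the authors' deposited table. In RS2 the single rows of the PICALM, AP1G2 and 117-base NAPA exons were 0.082, 0.071 and 0.086 in the authors' deposited table, none called. The RS2 rows in the authors' deposited table were -0.011 and 0.036 for the 80-base NAPA exon and -0.048 and 0.042 for the NUMB exon, none called.

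**Figure D4:**
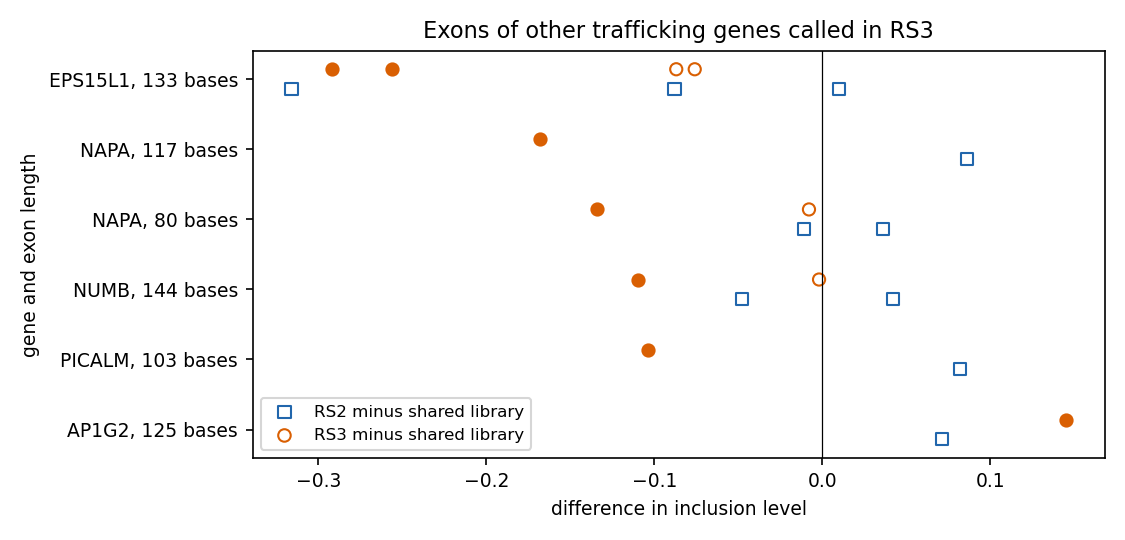
The 6 exons of 5 other trafficking genes that were called in RS3 are listed by gene and length in bases (y axis) against the authors' difference in inclusion level (x axis); circles are rows of RS3 minus the shared library, squares rows of RS2 minus the shared library, and filled symbols are called. The called values run from -0.292 for EPS15L1 to 0.145 for AP1G2, and every RS2 symbol is open.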

How the data were processed

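Skipped exons were compared in 3 RNA-seq libraries of BJ fibroblasts, 1 per siRNA. Per the submitters' processing notes, reads were aligned with STAR to hg19 and checked with FastQC. Neither versions nor the program that tested the exons are given in the sources used here. For each event the authors deposited a signed difference in inclusion level (a score between -1 and 1, per the file headers). The authors also deposited its p-value and FDR. The 4 columns of inclusion level per library were read only to see which way the difference was taken, and none of their values was analysed, since no label ties them to a sample. No count was available, so depth is unknown. Calls needed both an FDR below 0.05 and an absolute difference of 0.1 or more. Shares of called events were taken over all rows of each table. Exons were matched on gene, strand, start and end. Coordinates are in hg19, counted from 1. Where an exon has several rows, all or their range are given. Sequences came from GENCODE release 29 transcripts, matched by gene and exon length with no use of coordinates, because the annotation is on another build.

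The members, the gene list and the rules were chosen with earlier results of these data known. Named were the 8 genes' called exons, the largest difference of each gene in each table and the neighbours of called exons, up to 6 exons per gene, and up to 10 called genes of a list of other trafficking genes without the members. A neighbour that this rule names in BIN1, and its sequence, are not reported here. Other exons printed were chosen after their values were seen. Python 3.11.15 with pandas 2.3.3 was used. Adjustment, calling and the choice of rows were tested on simulated data.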

Additional observations from a re-analysis of the deposited data

How the results depend on the processing

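No paired analysis was possible because each group has 1 library. Adjusting the deposited p-values anew by Benjamini-Hochberg moved 0 events across the FDR limit in either table. With a minimum difference of 0.2, at an FDR under 0.05 or under 0.01, the called member events in RS2 went to 0 in 0 genes, those in RS3 to 4 in 3 genes, and the called genes of the list of other trafficking genes in RS3 to 1. Without a minimum difference, RS3 had 8 called member events in 5 genes (CLTA joining through its 38-base exon) and 10 called list genes. With only the row of smallest p-value kept for each exon, the counts were 2 events in RS2 and 4 in RS3, in as many genes. That choice favours called rows, so it is no check on exons whose rows differ. Only exons in a single row of their table left 0 called member events in 0 genes in RS2, 2 events in 2 genes in RS3 (DNM2 and VPS29), 3 called list genes and a median RS3 difference of -0.002 over the members. Taking the median over an exon's rows gave -0.043 for the 129-base BIN1 exon and -0.2105 for the 12-base STX16 exon in RS3, and -0.159 for the 90-base BIN1 exon and 0.0225 for the 33-base PLD3 exon in RS2, with no change of sign. The called genes of the list in RS2 stayed at 0 in all of these settings. With 1 library per side and no depth, none of these values has an error.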
